A study of Mus musculus with 15 samples.

Results

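The 8 genes described here encode enzymes of cholesterol synthesis: Hmgcs1, Mvk, Pmvk, Mvd, Idi1, Fdps, Fdft1 and Sqle. They were chosen by symbol among the 56748 Ensembl gene rows of the deposited table, with earlier results of these data known. Each had 1 row and a count in every library, and 8 of 8 passed the filter on low counts, which kept 22998 genes.

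RNA was sequenced from the cortex of wild-type C57BL/6J mice killed 3 hours after 1 session of repetitive transcranial magnetic stimulation, in which magnetic pulses drive cortical tissue through the skull. The 3 groups were intermittent theta-burst stimulation (iTBS, short trains of bursts with pauses), continuous theta-burst stimulation (cTBS, the same kind of bursts without pauses) and sham stimulation, with 5 animals each. All groups shared the strain, the tissue and the single session, and no allele or drug is named in the labels. Sample titles give the area as somatosensory and the design text as sensorimotor, so the tissue is called cortex here.

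Cholesterol in the brain is made on site, because the lipoproteins of the blood hardly cross the blood-brain barrier. Oligodendrocytes use it for myelin, and astrocytes make it for themselves and for neurons. The pathway starts from acetyl-CoA and passes through mevalonate, activated isoprene units and squalene before the sterol rings are closed. Transcription of its genes is driven by the SREBP factors, which are released from the endoplasmic reticulum when membrane cholesterol is low and which act on promoters together with NF-Y, a factor that binds CCAAT boxes, and with Sp1, a factor that binds GC boxes.

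RefSeq promoter windows (build GRCm38.p6, 250 bases before to 50 after the annotated start) were at hand for 5 of the 8 genes: Hmgcs1, Mvk, Pmvk, Mvd and Idi1. Windows of 3 genes are shown because they carry the motifs of these factors in different numbers. Capitals mark matches to the SRE-like motif TCACNCCAC, the CCAAT box CCAAT and the GC box GGGCGG, searched on both strands, and no match overlapped another. The windows are chr13:119690101-119690400 on the plus strand for Hmgcs1, chr5:114444019-114444318 on the plus strand for Mvk and chr8:122443373-122443672 on the minus strand for Mvd.
Hmgcs1: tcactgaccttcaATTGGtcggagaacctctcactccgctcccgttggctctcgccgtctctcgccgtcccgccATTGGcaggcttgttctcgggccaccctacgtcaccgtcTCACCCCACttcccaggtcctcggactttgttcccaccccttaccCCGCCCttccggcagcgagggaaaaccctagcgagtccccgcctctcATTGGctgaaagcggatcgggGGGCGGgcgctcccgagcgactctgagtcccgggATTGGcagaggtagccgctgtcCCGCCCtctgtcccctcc
Mvk: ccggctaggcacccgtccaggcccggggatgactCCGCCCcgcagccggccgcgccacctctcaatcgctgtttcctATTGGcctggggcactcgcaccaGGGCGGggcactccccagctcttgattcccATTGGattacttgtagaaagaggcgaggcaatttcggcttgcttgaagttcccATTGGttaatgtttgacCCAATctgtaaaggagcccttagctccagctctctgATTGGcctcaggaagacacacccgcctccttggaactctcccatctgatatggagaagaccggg
Mvd: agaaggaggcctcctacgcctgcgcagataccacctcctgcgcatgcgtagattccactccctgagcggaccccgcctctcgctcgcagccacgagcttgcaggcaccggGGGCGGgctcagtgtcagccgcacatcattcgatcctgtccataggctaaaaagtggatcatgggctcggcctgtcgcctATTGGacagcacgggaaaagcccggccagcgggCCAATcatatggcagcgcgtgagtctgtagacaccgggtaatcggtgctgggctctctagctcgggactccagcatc

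The Hmgcs1 window held 1 SRE-like match, which began 137 bases before the start, with 4 CCAAT boxes and 3 GC boxes. Mvk held 5 CCAAT boxes and 2 GC boxes, Mvd 2 CCAAT boxes and 1 GC box, and Idi1 2 CCAAT boxes and 1 GC box. Pmvk had 2 windows, of which 1 held a single CCAAT box and the other no match. A CCAAT box was thus found in a window of 5 of 5 genes, against 41.1% of 27025 genes in the table. A GC box was found in 4 of 5 genes (38.2% of all) and the SRE-like motif in 1 of 5 (1.44% of all). These matches describe letters in a window and not binding.

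Levels are given as CPM, counts scaled to equal library size. Set per kilobase of annotated exon, so that genes can be compared, the sham level was highest for Hmgcs1, at 42.2 ± 2.36 CPM per kb (SD, n = 5). It was followed by Fdft1 at 17.3 ± 1.25 CPM per kb, Idi1 at 15.2 ± 1.20, Sqle at 10.3 ± 0.615 and Pmvk at 9.39 ± 0.909. Mvd, at 7.17 ± 0.361 CPM per kb, and Mvk, at 5.12 ± 0.522, came next. In sham, the ranges of Fdft1 and Idi1 overlapped, as did those of Sqle and Pmvk, while Hmgcs1 stood clear of every other enzyme gene. Within a group the coefficient of variation of 7 of the genes was between 5.04% (Mvd in sham) and 13.2% (Idi1 in iTBS).

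Fdps, which makes farnesyl diphosphate, stood far below the other 7, at 0.212 ± 0.0608 CPM per kb in sham. Its raw counts were 8 to 63 per library, against 166 to 626 for Mvd and 2474 to 9564 for Hmgcs1. Its transcript has near-identical matches: 7 other annotated genes aligned to it at 90% identity or more, among them 6 processed pseudogenes. The pseudogene Gm3571 matched 76.8% of its length at 98.9% identity. The match that is no pseudogene, Gm43738, is a protein-coding gene model on the same strand. It shares 1124 exon bases with Fdps, 26.7% of the Fdps exons, and held 0 to 4 counts per library. Together these 7 genes held 32 to 92 counts per library, so that Fdps and these genes summed to 2.75 ± 0.275 CPM in sham (SD, n = 5). How reads with several matching places were counted is not given in the sources used here, so the Fdps row cannot be read as the level of that enzyme's messenger RNA. Its coefficient of variation was 28.7% to 44.2% within groups, and values over the enzyme genes are given with and without it.

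Fdft1 and Idi1 carry smaller limits of the same kind. Fdft1 shares 774 exon bases with Ctsb, a cathepsin gene on the opposite strand that held 6726 to 24577 counts per library, and the strand setting of the counting is not given in the sources used here. Idi1 has a processed pseudogene, Gm13502, identical to it over 684 bases, with 192 to 632 counts against 744 to 2606 for Idi1. Hmgcs1 shares 557 exon bases with the antisense gene Gm48342, which held 9 to 71 counts.

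**Figure D1:**
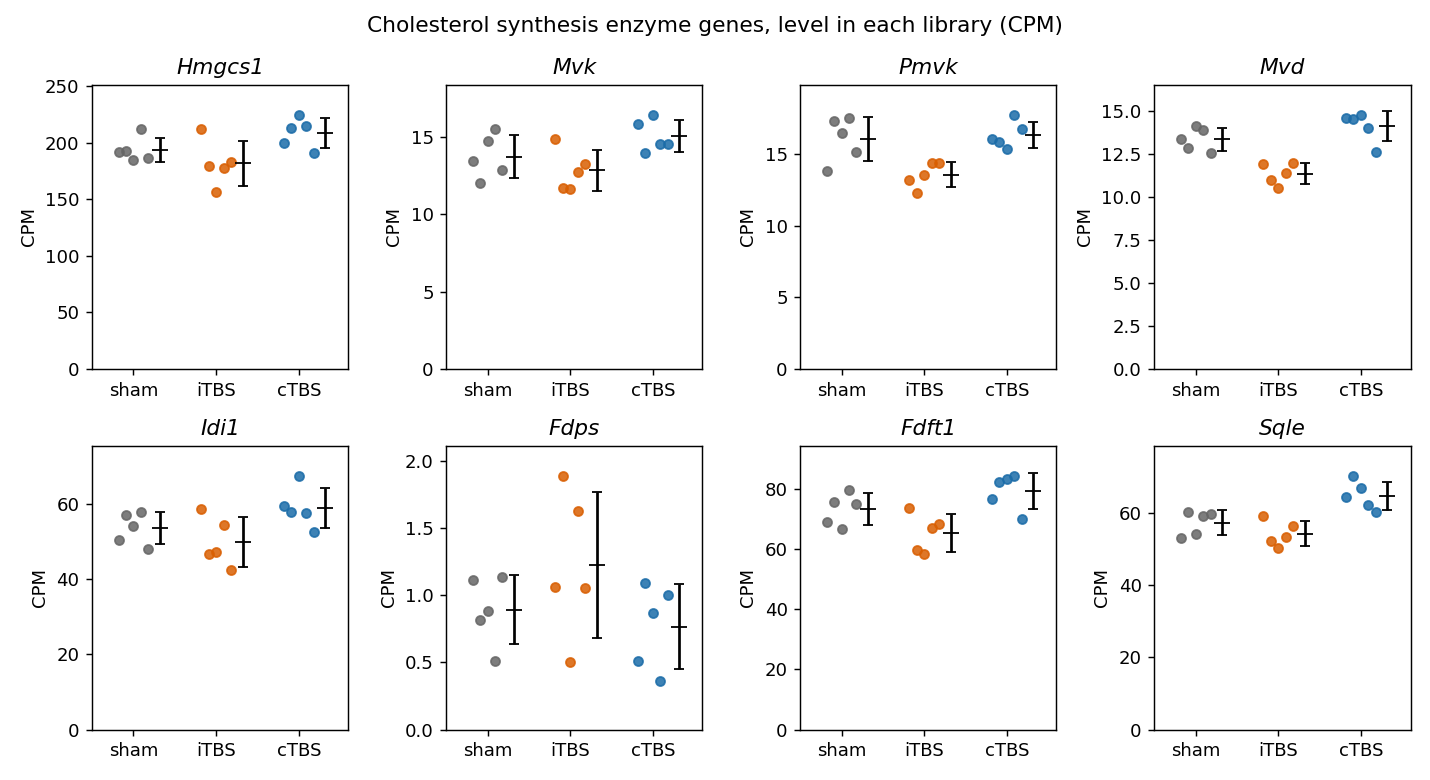
Level of each enzyme gene in CPM (vertical axes, from 0) in the 5 sham, 5 iTBS and 5 cTBS libraries; each point is a library, and the black bar and whiskers are the group mean and SD. For Mvd the 5 iTBS libraries, at 10.5 to 11.9 CPM, lie below the lowest sham library at 12.5 CPM, and Fdps lies under 2 CPM throughout.

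Libraries held 15385070 to 47807723 counts, with 32299 to 35449 genes detected, and no 2 libraries were identical. Total counts ran from 18484169 to 47807723 in sham, from 15385070 to 37929975 in iTBS and from 35545632 to 43770223 in cTBS. Depth thus differed between groups, and its part in the comparisons was not tested. Markers of cortical excitatory neurons were high in every library, as the label has it. The level of nuclear-retained noncoding RNAs (mean log2 CPM of 10 genes such as Malat1) differed between groups, at 7.87 ± 0.73 in sham, 7.94 ± 0.54 in iTBS and 6.98 ± 0.58 in cTBS (SD, n = 5). It ranged from 6.68 (sham 4) to 8.53 (sham 3) in sham, from 7.27 (iTBS 1) to 8.40 (iTBS 2) in iTBS and from 6.18 (cTBS 4) to 7.56 (cTBS 5) in cTBS. Without sham 4 the lowest sham library was at 7.78. The summed level of the markers of striatal projection neurons had a median of 520 CPM in sham, 735 in iTBS and 1378 in cTBS, with overlapping ranges of 377 to 1321, 567 to 1662 and 530 to 1581 CPM. Choroid plexus RNA stood out in sham 2, sham 5 and cTBS 4. The labels give no batch. In bulk tissue, fewer cells of a type and less RNA per cell cannot be told apart.

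The first comparison asked which of these genes differed from sham 3 hours after iTBS. The 2 enzymes that act in the middle of the mevalonate pathway had the lowest values: Pmvk, which adds the second phosphate to mevalonate, and Mvd, which removes a carboxyl group to give the isoprene unit isopentenyl diphosphate. Their changes against sham were -15.7% and -14.8%. Neither passed over all genes in edgeR's quasi-likelihood test (adjusted p = 1.00 for both), and 0 of 8 enzyme genes passed, with 0% of the 22998 tested genes.

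Mvd was at 11.9, 10.96, 10.5, 11.4 and 11.9 CPM in iTBS 1 to 5, and at 13.3, 12.8, 14.1, 13.9 and 12.5 CPM in sham 1 to 5. The groups did not overlap, which was the case, with iTBS lower, for 0.209% of tested genes. The log2 fold change was -0.23 ± 0.07 (SE; edgeR, unadjusted p = 0.00287), which ranked 21 among all tested genes by p. Pmvk was at 13.2, 12.3, 13.5, 14.4 and 14.4 CPM in iTBS 1 to 5, and at 13.9, 17.3, 16.5, 17.6 and 15.2 CPM in sham 1 to 5. Sham 1 was the lowest sham library and lay within the iTBS range. The log2 fold change of Pmvk was -0.25 ± 0.08 (edgeR, unadjusted p = 0.00464), with rank 34.

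Fdft1, squalene synthase, which commits farnesyl diphosphate to sterols, was at 73.7, 59.8, 58.2, 66.8 and 68.2 CPM in iTBS 1 to 5. In sham 1 to 5 it was at 69.0, 75.5, 66.6, 79.7 and 74.9 CPM, so the ranges overlapped, and 2 iTBS libraries lay below every sham library. Its log2 fold change was -0.16 ± 0.07 (edgeR, unadjusted p = 0.0441). The other enzyme genes, apart from Fdps, had smaller log2 fold changes. Hmgcs1, which makes the precursor HMG-CoA, was at 182 ± 19.9 CPM against 194 ± 10.8 (log2 fold change -0.09, 95% interval -0.25 to 0.06). Of its 5 iTBS libraries, 4 lay below every sham library, and iTBS 1 was at 212 CPM. Mvk, the first kinase of mevalonate, was at -0.09 (-0.28 to 0.09), Idi1, the isomerase of the isoprene unit, at -0.10 (-0.29 to 0.09), and Sqle, squalene epoxidase, at -0.08 (-0.21 to 0.05).

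Fdps was at 1.06, 1.89, 0.506, 1.63 and 1.05 CPM in iTBS 1 to 5 and between 0.510 and 1.14 CPM in sham, with a log2 fold change of 0.49 (95% interval -0.27 to 1.25). Summed with the 7 genes that match it, Fdps was at 3.01 ± 0.633 CPM in iTBS and 2.75 ± 0.275 in sham (SD, n = 5).

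Of the 8 genes, 7 had a log2 fold change below 0, as had 50.5% of tested genes. The median was -0.10, and also -0.10 over the 7 genes without Fdps, against -0.00 over all tested genes. Lower at an unadjusted p under 0.05 were 3 of 8 (edgeR), against 0.974% of tested genes. Fdft1 was lost from that number in most other settings: it was 2, Pmvk and Mvd, in 9 of 11 alternatives and in 11 of 15 fits with a library left out. It was 4 without iTBS 1, a fit for which the share of all tested genes is not given here. The median of the 8 genes moved to -0.05 without sham 4 and to -0.16 without iTBS 1. After adjustment for nuclear RNA (its level as a covariate), Pmvk was at -0.24, Mvd at -0.23 and Fdft1 at -0.15. Among markers of other cells, those of thalamic neurons lay below sham in 7 of 7 genes (median -0.48; summed level 259 to 286 CPM in iTBS and 256 to 552 in sham) and those of the choroid plexus in 9 of 10 (median -1.05; 218 to 355 and 222 to 631 CPM). Endothelial and mural markers lay above sham in 8 of 8 genes (median 0.12; 224 to 248 and 204 to 234 CPM) and striatal markers in 9 of 9 (median 0.27). The median summed level of thalamic markers was 273 CPM in iTBS and 272 in sham. Sham 2 stood apart, with a thalamic marker level (mean log2 CPM) of 5.88 against at most 4.27 in any other sham library. Myelin markers lay below sham in 10 of 12 genes and astrocyte markers in 7 of 9, with a median of -0.05 in both. With the myelin level as a covariate the median of the 8 enzyme genes was -0.10. Pmvk and Mvd kept an unadjusted p under 0.05 (edgeR) without sham 2, and without the 3 libraries with most choroid plexus RNA. Otherwise the part of these markers in the result was not tested.

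**Figure D2:**
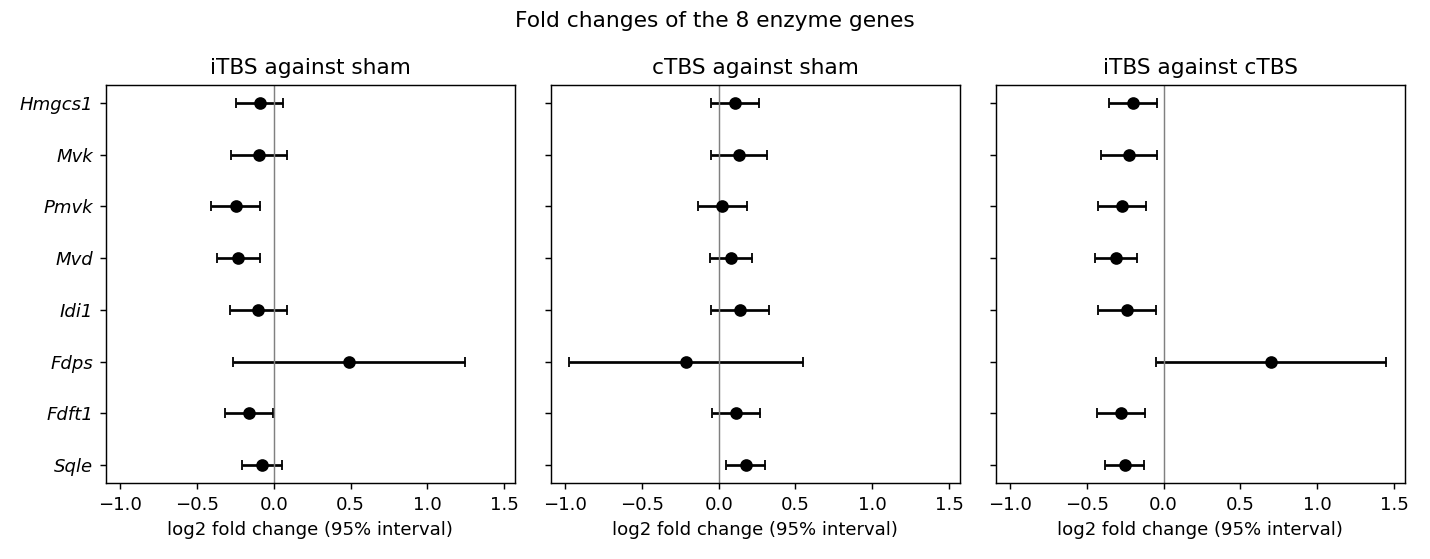
Log2 fold change of each enzyme gene (points) with its 95% interval (bars) in the 3 comparisons, from edgeR; values left of 0 are lower in the first group named. Mvd and Pmvk lie left of 0 against sham after iTBS, 7 of 8 genes lie left of 0 for iTBS against cTBS, and the intervals of Fdps are the widest.

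After cTBS the enzyme genes lay on the other side of sham, and the largest value was that of Sqle, squalene epoxidase, the first step that uses oxygen. Sqle was at 64.5, 70.3, 66.9, 62.2 and 60.2 CPM in cTBS 1 to 5, and at 53.1, 60.4, 54.2, 59.2 and 59.8 CPM in sham 1 to 5. In 4 of 5 cTBS libraries it was above every sham library, and cTBS 5 lay just under sham 2. The log2 fold change was 0.18 ± 0.06, or 13.01% (edgeR, unadjusted p = 0.00993, adjusted p = 0.144). Here too 0 of 8 passed, with 0% of tested genes.

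The other genes had intervals that included 0. Hmgcs1 was at 209 ± 13.1 CPM (log2 fold change 0.11, 95% interval -0.05 to 0.26), and Fdft1 at 79.2 ± 5.90 CPM (0.11, -0.04 to 0.27). Mvk was at 0.13 (-0.05 to 0.31), Idi1 at 0.14 (-0.05 to 0.33), Mvd at 0.08 (-0.06 to 0.22) and Pmvk at 0.02 (-0.13 to 0.18). Fdps was at -0.21 (-0.97 to 0.55). Of the 8 genes, 7 lay above sham, against 46.5% of tested genes, and 1 of 8 was higher at an unadjusted p under 0.05 (edgeR), against 6.80% of tested genes higher and 24.4% in either direction. That number was 5 of 8 without sham 4, where 9725 of 23508 tested genes had such a p in either direction, and 5 of 8 without iTBS 1, where 6688 of 23481 had.

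The median of the 8 was 0.11 (0.11 without Fdps) against -0.02 over all tested genes, and 0.20 without sham 4, where Sqle passed (edgeR, log2 fold change 0.24, adjusted p = 0.0322) and 5726 genes passed in all. After adjustment for nuclear RNA the median of the enzyme genes was 0.04, and 0 of 8 had an unadjusted p under 0.05 (edgeR). The share of all tested genes with such a p in that fit is not given here, so the count is not read as particular to these genes. In the same fit Sqle was at 0.13, Hmgcs1 at 0.02, Mvk at 0.04, Pmvk at -0.04 and Fdps at 0.35. The nuclear RNA level was lower in cTBS than in sham, and its part in these values was not tested further. Markers of oligodendrocytes and myelin also stood higher in cTBS, with 12 of 12 above sham and a summed level of 2612 to 4120 CPM against 2421 to 3519. With their level as a covariate, Sqle was at 0.17 and the median of the 8 was 0.11. Markers of microglia (8 of 8), inhibitory neurons (7 of 7) and striatal projection neurons (9 of 9) also lay above sham, with medians of 0.17, 0.17 and 0.68. So did most of those of astrocytes (8 of 9, median 0.12) and oligodendrocyte precursors (7 of 8, median 0.15). Thalamic markers lay below sham in 7 of 7 genes (median -0.44) and choroid plexus markers in 9 of 10 (median -0.26). The part of these markers in the result was not tested.

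Set against each other, the 2 stimulation groups lay farthest apart in these genes. Lower after iTBS at an unadjusted p under 0.05 were 7 of 8 genes (edgeR), against 10.6% of tested genes lower and 30.6% in either direction, and all but Fdps were among them. No gene passed over all genes (0 of 8, with 0% of tested genes), and the smallest adjusted p was 0.0838, a value that Mvd, Sqle, Fdft1 and Pmvk shared. The median log2 fold change was -0.25, and -0.25 without Fdps, against 0.03 over all tested genes, and 7 of 8 lay below 0, against 46.1% of tested genes. In Mvd, Pmvk and Sqle the groups did not overlap, which was so for 1.70% of tested genes with iTBS lower. These values rest on the same libraries as both comparisons with sham and are not a separate line of evidence.

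Mvd was at 14.6, 14.5, 14.7, 13.98 and 12.6 CPM in cTBS 1 to 5, all above the highest iTBS library at 11.9 CPM. Its log2 fold change was -0.31 ± 0.07, or 19.4% lower in iTBS (-19.4%; edgeR, unadjusted p = 2.07e-04), with rank 27 among tested genes. Pmvk was at 16.1, 15.8, 15.4, 17.7 and 16.8 CPM in cTBS 1 to 5, against at most 14.4 CPM in iTBS (-0.27 ± 0.07). Sqle was at 59.3, 52.2, 50.4, 53.4 and 56.4 CPM in iTBS 1 to 5, and its lowest cTBS value was 60.2 CPM (-0.25 ± 0.06). Fdft1 was at 76.7, 82.1, 83.2, 84.2 and 70.0 CPM in cTBS 1 to 5, where cTBS 5 lay below iTBS 1 at 73.7 CPM (-0.28 ± 0.07). Hmgcs1 ranged from 156 to 212 CPM in iTBS and from 191 to 224 CPM in cTBS, with 4 of 5 iTBS libraries below every cTBS library (-0.20 ± 0.07). Mvk ranged from 11.6 to 14.8 CPM in iTBS and from 13.9 to 16.4 CPM in cTBS (-0.23 ± 0.09), and Idi1 from 42.3 to 58.6 and from 52.3 to 67.3 CPM (-0.24 ± 0.09). Fdps went the other way, at 0.70 ± 0.35, or 0.11 after adjustment for nuclear RNA.

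The call for these genes turned on single libraries and on the test. With edgeR, 7 of 8 passed without iTBS 1, where 4474 genes passed in all, and 4 of 8 (Pmvk, Mvd, Fdft1 and Sqle) passed without cTBS 5 or without sham 4, where 3380 and 3637 genes passed in all. Those 4 also passed with DESeq2, which called 2618 genes, and 7 passed with limma-voom with quality weights, which called 6853. After adjustment for nuclear RNA, 4 of 8 had an unadjusted p under 0.05 (edgeR), the same Pmvk, Mvd, Fdft1 and Sqle, as had 1801 of 22998 tested genes in either direction, and the median moved to -0.17. In that fit Mvd was at -0.27, Pmvk at -0.20, Fdft1 at -0.15, Sqle at -0.20, Idi1 at -0.19, Mvk at -0.13 and Hmgcs1 at -0.10. Myelin markers were lower in iTBS than in cTBS in 12 of 12 genes (median -0.27) and astrocyte markers in 9 of 9 (median -0.17). With the myelin level as a covariate the median of the 8 was -0.24. Striatal markers were lower in iTBS in 9 of 9 genes (median -0.48), microglial markers in 7 of 8 (-0.19) and inhibitory neuron markers in 5 of 7 (-0.21), and endothelial and mural markers were higher in 8 of 8 (0.14). Choroid plexus markers were lower in 8 of 10 (-0.79), and cortical excitatory neuron markers were higher in 6 of 8 (0.06). The part of these and of the astrocyte markers in the result was not tested. Nor was that of depth, with 15385070 to 37929975 counts per library in iTBS and 35545632 to 43770223 in cTBS.

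Within groups, some pairs of the enzyme genes moved together across libraries. Over deviations from group means in 15 libraries, all 21 pairs of the 7 genes without Fdps had a positive Pearson r, with a median of 0.473 and a range of 0.0292 to 0.847. Hmgcs1 and Fdft1 were the closest pair (r = 0.847, permutation p = 2e-05, adjusted p = 5.6e-04 over 28 pairs; Spearman rho = 0.929, permutation p = 1e-05, the smallest the permutations can give), with r = 0.769 without the 2 farthest libraries. Fdft1 and Sqle, neighbouring steps, followed at r = 0.818 (permutation p = 2.9e-04, adjusted p = 0.00406; Spearman rho = 0.696, permutation p = 0.00521; r = 0.793 without the 2 farthest). Mvk and Mvd were at r = 0.719 (permutation p = 0.00274, adjusted p = 0.0256; Spearman rho = 0.804, permutation p = 5.5e-04; r = 0.798 without the 2 farthest). In each pair the 2 farthest libraries were those farthest from the median deviation of the second gene named. The first gene did not enter that choice. Of the 28 pairs, 5 passed by Pearson r and 3 by Spearman rho. The other 2 that passed by Pearson r alone were Hmgcs1 with Sqle (r = 0.681, permutation p = 0.00371, adjusted p = 0.026; Spearman rho = 0.611, permutation p = 0.0171, adjusted p = 0.119; r = 0.587 without the 2 farthest) and Hmgcs1 with Mvd. For Hmgcs1 and Mvd r was 0.650 (permutation p = 0.00786, adjusted p = 0.044; Spearman rho = 0.475, permutation p = 0.075, adjusted p = 0.196), and 0.405 without the 2 farthest. Pmvk passed with none of the others, and its r with the 6 genes other than Fdps was 0.0292 to 0.303. The 7 pairs with Fdps ranged from -0.494 to 0.118 and 0 of them passed by either measure. Libraries share depth and RNA makeup, so that genes unrelated to the pathway can move together as well.

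The 8 genes were set against 4 library measures, 32 relations in all. The 2 farthest libraries were here those farthest from the median of the measure before group means were removed. They need not be those with the largest deviations. As for the pairs, the permutation p-values are somewhat too small, and relations with an adjusted p close to 0.05 are not secure. With the nuclear RNA level, 1 of 8 relations passed, that of Fdft1, and 7 of 8 had a negative Pearson r, from -0.693 for Fdft1 to -0.212 for Idi1, and Fdps had a positive one. Fdft1 gave r = -0.693 (permutation p = 0.00466, adjusted p = 0.0497), Spearman rho = -0.807 (permutation p = 5.4e-04, adjusted p = 0.0173) and r = -0.722 without the 2 farthest libraries. For nuclear RNA these were cTBS 4 and cTBS 1. Sham 4, which had the most extreme deviation (-1.20), was kept, so r without it is not known. Fdps gave r = 0.636 (permutation p = 0.011, adjusted p = 0.0707), Spearman rho = 0.679 (permutation p = 0.00646, adjusted p = 0.103) and r = 0.532 without the 2 farthest libraries. With log2 total counts, 8 of 8 relations had a positive Pearson r, from 0.12 to 0.725. Of these, 2 passed by Pearson r and 0 by Spearman rho. Sham 4, at a deviation of 0.749 in log2 total counts, was kept when the 2 farthest were left out. Hmgcs1 went with log2 total counts at r = 0.725 (permutation p = 0.00339, adjusted p = 0.0497; Spearman rho = 0.579, permutation p = 0.0264, adjusted p = 0.137), with 0.558 after the 2 farthest were left out. Fdft1 and log2 total counts gave r = 0.681 (permutation p = 0.00356, adjusted p = 0.0497; Spearman rho = 0.568, permutation p = 0.03, adjusted p = 0.137), with 0.494 after the 2 farthest were left out.

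**Figure D3:**
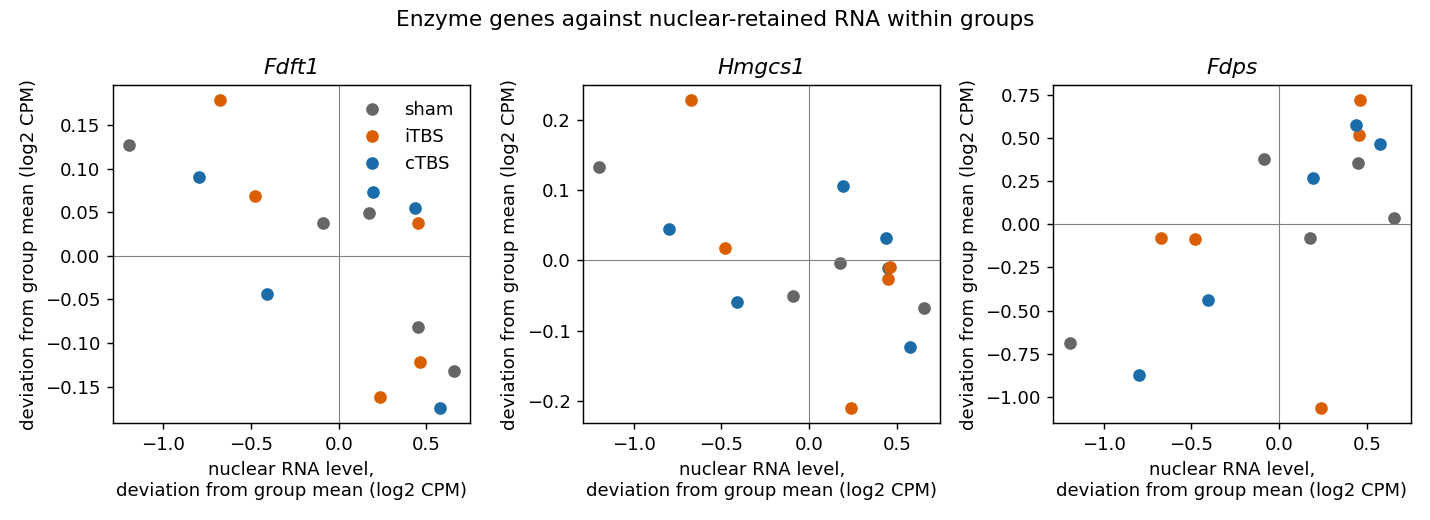
Deviation of Fdft1, Hmgcs1 and Fdps from the group mean (vertical axes, log2 CPM) against the deviation of the nuclear-retained RNA level (horizontal axes, log2 CPM) in 15 libraries, coloured by group. Fdft1 is lower where nuclear RNA is higher (r = -0.693), and Fdps, the row with 8 to 63 counts, is higher there (r = 0.636).

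With the myelin level, by contrast, Pearson r lay between -0.230 (Fdps) and 0.116 (Sqle), and 0 of 8 relations passed (smallest permutation p = 0.409, Fdps; adjusted p = 0.621). With the astrocyte level, 7 of 8 were positive, with Idi1 at r = 0.654 (permutation p = 0.00868, adjusted p = 0.0694; Spearman rho = 0.611, permutation p = 0.0185; r = 0.698 without the 2 farthest), and 0 of 8 passed.

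Among 9906 other genes with a mean of at least 10 CPM, those most like the average of the 8 within groups (Pearson r over 15 libraries, a description with no test) were Ubxn8 at 0.916, Eif1ax at 0.891, Mfsd1 at 0.888, Ostm1 at 0.888 and Slc41a2 at 0.886. Ubxn8 encodes a membrane protein of the endoplasmic reticulum, Eif1ax a translation initiation factor, Mfsd1 and Ostm1 lysosomal membrane proteins and Slc41a2 a magnesium transporter. None belongs to the lists of the pathway used here.

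Over all tested genes, 50.5% lay below sham after iTBS and 46.5% above it after cTBS. Lower after iTBS at an unadjusted p under 0.05 (edgeR) were 0.974%. The counts of the lists that follow are to be set beside these shares, and some lie near them. Of 12 genes for the sterol steps after squalene epoxide, 11 lay below sham after iTBS (median -0.04, 1 at an unadjusted p under 0.05 by edgeR), and 0 passed. Those with the smallest p were Nsdhl, a sterol demethylation enzyme, at 16.3 ± 1.65 CPM against 18.3 ± 1.21 (log2 fold change -0.17 ± 0.08), and Sc5d, a sterol desaturase, at -0.13 ± 0.07. After cTBS 8 of 12 lay above sham (median 0.06), led by Dhcr7, which makes cholesterol from its direct precursor, at 31.6 ± 1.09 CPM against 28.9 ± 2.28 (0.13 ± 0.06), and Msmo1, a sterol oxidase, at 0.11 ± 0.06; 0 passed.

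Of the 3 genes of acetyl-CoA supply, 3 lay below sham after iTBS (median -0.04) and 2 above it after cTBS (median 0.13), and 0 passed. Acat2, the thiolase that feeds HMG-CoA synthesis, was at 36.6 ± 3.72 CPM after cTBS, 30.9 ± 2.40 in sham and 29.0 ± 3.14 after iTBS. Its log2 fold change was 0.24 ± 0.09 for cTBS (edgeR, adjusted p = 0.145) and -0.09 ± 0.09 for iTBS. Acly, which makes acetyl-CoA from citrate, was at 0.13 ± 0.07 and -0.04 ± 0.07. The remaining gene, Acss2, which makes acetyl-CoA from acetate, was at -0.10 ± 0.07 and -0.02 ± 0.07. In the prenyl branch, which draws on the same isoprene units for protein anchors, dolichol and coenzyme Q, 8 of 12 genes lay below sham after iTBS (median -0.04) and 8 of 12 above it after cTBS (median 0.07). The farnesyltransferase subunits Fnta and Fntb were at -0.10 ± 0.06 and -0.11 ± 0.08 after iTBS. After cTBS Pggt1b, a prenyltransferase subunit, was at -0.15 ± 0.05 and Nus1, a subunit of dolichol synthesis, at 0.14 ± 0.06 (edgeR, adjusted p = 0.144 and 0.167).

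Of the 7 regulators of the SREBP pathway, 5 lay above sham after iTBS and 2 below (median 0.05), with 11395 of 22998 tested genes above. Insig2, which holds SREBP in the endoplasmic reticulum, was at 36.0 ± 1.52 CPM against 32.4 ± 3.50 (0.15 ± 0.07), and Srebf1 was at 0.06 ± 0.06. After cTBS 7 of 7 lay above sham (median 0.15), against 46.5% of tested genes. At an unadjusted p under 0.05 (edgeR) 4 of 7 were higher, against 6.80% of tested genes higher and 24.4% in either direction. Srebf1, the SREBP gene best known for fatty acid synthesis, was at 49.0 ± 3.77 CPM against 41.2 ± 2.57 (0.25 ± 0.06, edgeR adjusted p = 0.144), and Insig2 was at 0.21 ± 0.07. No regulator passed.

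Genes of cholesterol turnover and transport were split after iTBS, with 8 of 14 below sham (median -0.00); Npc2, a lysosomal cholesterol carrier, was at -0.13 ± 0.10 and Nr1h3, a liver X receptor, at 0.20 ± 0.18. After cTBS 10 of 14 lay above sham (median 0.04), with the exporter Abcg1 at 0.17 ± 0.08 and Clu, a lipoprotein component, at 0.15 ± 0.08. Of 9 fatty acid synthesis genes, 7 lay below sham after iTBS (median -0.05; Elovl6, an elongase, at -0.10 ± 0.06, and Fads2, a desaturase, at -0.14 ± 0.09). After cTBS 7 of 9 lay above it (median 0.06; the elongase Elovl5 at 0.13 ± 0.07 and the desaturase Scd2 at 0.13 ± 0.08). No gene of either list passed in either comparison.

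**Figure D4:**
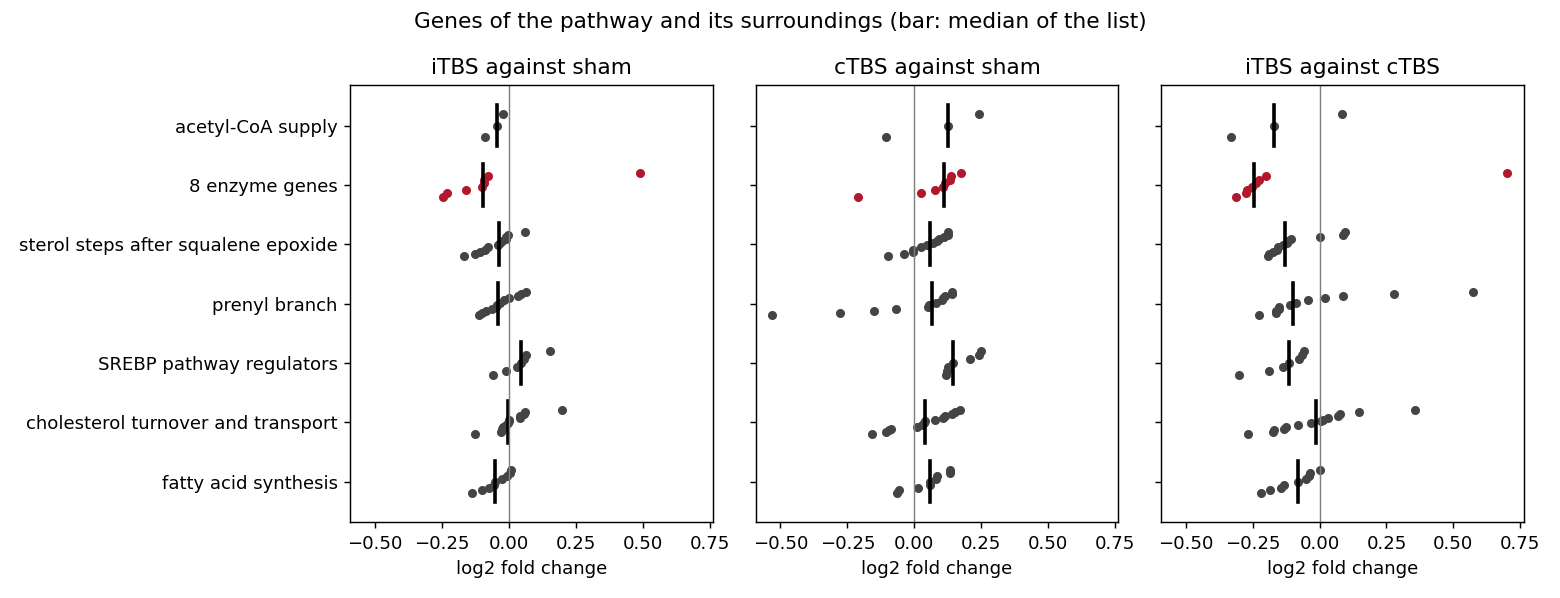
Log2 fold change (horizontal axis) of each gene of the pathway and of neighbouring lists in the 3 comparisons; each point is a gene and each bar the median of its list, with the 8 enzyme genes in red. The enzyme genes have a median of -0.10, 0.11 and -0.25 in the 3 panels, and their point far to the right in both iTBS panels is Fdps.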

How the data were processed

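The authors deposited 2 tables for the 15 libraries, per the file headers and values: raw counts per Ensembl gene, and variance-stabilized log2 values. Per the labels' protocols, libraries were stranded total RNA after ribosomal depletion. The build was GRCm39 (mm39) and the tools named are STAR, fastp and DESeq2, per the submitters' processing notes; no counter, annotation or version was given in those sources.

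Symbols were matched by identifier to GENCODE M21 (52073 of 56748 rows, 97.7% of counts); exon lengths, overlaps and look-alikes (BLAST 2.17.0, at least 90% identity over 100 bases) come from it, on GRCm38. The main test was edgeR 4.0.16 (R 4.3.3) on the counts: TMM scaling, the default filter by group, a quasi-likelihood test on all 15 libraries with a term per group, and Benjamini-Hochberg adjustment over 22998 genes, threshold 0.05. SE is the log2 fold change divided by the square root of F. CPM used the counts of tested genes and TMM factors. The log2 CPM values had a prior count of 2. The method was tested on simulated data for iTBS against sham, with counts drawn independently. The planted changes were larger than those of the enzyme genes other than Fdps. That test therefore does not bear on changes as small as theirs or on libraries whose genes shift together. Relations used two-sided permutation tests of deviations from group means (100000 resamples), which did not allow for the group means removed.

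The 8 genes, the lists and the alternatives were chosen with earlier results of these data known. Genes named besides the 8 are the 2 with the smallest p per pathway list in each comparison with sham, and the 5 most like the 8. Alternatives were other tests (DESeq2 1.42.0, limma 3.58.1), scaling, filter, covariates, samples and each library left out. The animals are separate per the design text. Some genes of the pathway are not reported here.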

Additional observations from a re-analysis of the deposited data

How the results depend on the processing

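Of the 24 log2 fold changes of the enzyme genes, recomputed under 11 alternatives and with each of the 15 libraries left out, 591 of the recomputed values kept direction and side of the threshold, 28 came to pass it and 5 changed sign. The sign changes were all for cTBS against sham: Pmvk at -0.039 and Fdps at 0.35 after adjustment for nuclear RNA, Pmvk at -0.0232 without sham 1 (up to 0.11 with another library left out), and Fdps at 0.0258 without cTBS 4 (-0.37 without cTBS 2) and at 0.13 without sham 2, sham 5 and cTBS 4 together (chosen after seeing the data). The cause was not tested. Enzyme genes that passed for iTBS against cTBS numbered 0 in the edgeR fit, 4 with DESeq2, 7 with limma-voom and 0 to 7 with a library left out (7 without iTBS 1). For cTBS against sham they numbered 1 with limma-voom and 0 to 1 with a library left out (1 without sham 4). Over all genes, cTBS against sham gave 132 calls with DESeq2, 5461 with limma-voom and 0 to 5726 with a library left out; iTBS against cTBS gave 2618 with DESeq2, 6853 with limma-voom and 0 to 4474. For iTBS against sham, 0 genes passed in the edgeR fit (443 at an unadjusted p under 0.05) and 0 under each alternative run.

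With the replicate number of the titles as a replicate block, 5 genes passed for iTBS against cTBS, none of them an enzyme gene, and the medians of the 8 were -0.10, 0.11 and -0.25. Deviations of same-numbered libraries correlated at over 0.1 in 7 of 15 pairs, from -0.564 to 0.717. Libraries with different numbers were not set beside them, so these values cannot tell whether the numbers pair the samples. Depth limits Fdps, with 8 to 63 counts per library; the other 7 genes had at least 166.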

Other observations

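Of the 7 genes that match Fdps, 2 passed the filter on low counts, and they lay on opposite sides for iTBS against cTBS. Gm3571, the processed pseudogene closest to it, was at 0.836 ± 0.114 CPM after iTBS, 0.952 ± 0.171 in sham and 1.28 ± 0.203 after cTBS (SD, n = 5), and the iTBS and cTBS libraries did not overlap. Its log2 fold change for iTBS against cTBS was -0.61 ± 0.19 (edgeR, adjusted p = 0.0839), on the side of the other 7 enzyme genes, where the Fdps row was at 0.70 ± 0.35. Gm7979 was at 0.667 ± 0.343 CPM after iTBS, 0.516 ± 0.220 in sham and 0.441 ± 0.389 after cTBS, with a log2 fold change of 0.56 ± 0.56 for iTBS against cTBS (edgeR, adjusted p = 0.506), on the side of Fdps. These 2 genes held 13 to 57 and 2 to 39 counts per library and were singled out after their values were seen.

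Gm13502, the pseudogene identical to a stretch of Idi1, was at -0.26 ± 0.13 for iTBS against cTBS, beside -0.24 ± 0.09 for Idi1. Idi1 and its 3 copies summed to 61.8 ± 8.55 CPM after iTBS, 66.2 ± 5.71 in sham and 73.1 ± 7.27 after cTBS. Ctsb, the neighbour that overlaps Fdft1, was at 0.02 ± 0.09 for iTBS against sham and -0.16 ± 0.09 for iTBS against cTBS, where Fdft1 was at -0.16 ± 0.07 and -0.28 ± 0.07.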
